A study of Mus musculus with 40 samples.

Results

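The effect of the diet eaten after weaning was examined in the liver of male C57BL/6 mice (C57BL/6J in the study's methods) born to dams fed a low fat (LF) diet. The dams ate this diet from before mating until weaning. LL animals received the LF diet from weaning and LH animals a high fat (HF) diet, and livers were taken at 9 weeks of age. The comparison held 20 of the 40 animals of the series, 10 LL and 10 LH. All 20 shared the maternal LF diet, so the groups differed only in the post-weaning diet as far as the labels go, and the study divided the males of a cage between the diets. A CpG was included where at least 6 of the 10 animals of each group had a value, which kept 293 of the 300 CpGs, at 22 loci. The other groups of the series were born to HF dams and received the LF (HL) or HF (HH) diet after weaning. The DNA came from whole liver, so a change in methylation and a change in the proportions of cell types cannot be told apart, and the identity of the tissue could not be checked from methylation at selected loci.

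Methylation of cytosine at CpG dinucleotides is copied when cells divide and, at promoters, usually accompanies a silent gene. CpG-dense promoters of active genes are as a rule unmethylated, whereas CpGs in gene bodies and in sparse regions are mostly methylated. Imprinted genes carry methylation on the copy from a single parent at their control regions. The loci belonged to genes of liver metabolism, namely nuclear receptors, regulators of sterol synthesis, enzymes of gluconeogenesis, leptin and insulin signalling, NF-kB and imprinted genes.

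A pair of amplicons upstream of their genes is printed whole because Nr1i2 had the smallest p of any locus and Lep held the CpG with the largest difference. The sequence is the plus strand of build NCBIM37 (mm9), with the measured CpGs in capitals. The Lep amplicon spans chr6:29009930-29010112, and its 11 CpGs lie at -265 to -151 bp from the gene start. The Nr1i2 amplicon spans chr16:38296287-38296447, and its 5 CpGs lie at -1512 to -1446 bp from the start of a gene on the minus strand. Whether parts of either sequence also occur elsewhere in the genome was not tested.
Lep amplicon: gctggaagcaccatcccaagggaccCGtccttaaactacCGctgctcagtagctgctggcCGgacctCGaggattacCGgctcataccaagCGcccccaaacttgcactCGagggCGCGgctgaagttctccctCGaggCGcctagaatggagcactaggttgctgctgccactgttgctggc
Nr1i2 amplicon: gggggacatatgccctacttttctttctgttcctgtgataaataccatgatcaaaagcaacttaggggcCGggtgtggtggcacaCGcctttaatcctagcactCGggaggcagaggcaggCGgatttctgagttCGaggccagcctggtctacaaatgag

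The 3 windows of 30 bases below, also of the plus strand, show single CpGs described later that had a low methylation level, with the named CpG in capitals and any other measured CpG in lower case. Nr1h2_1 and Igf2_11 lie in 5′ UTRs and Nfkb1_4 in an intron. Here and in the text, the number after a gene's name counts its CpGs from the lowest genome position.
Nr1h2_1, chr7:51809235-51809264: gcctgggagtagctCGaagcaacagcgctt
Nfkb1_4, chr3:135353851-135353880: ttcccgttcccgccCGcggagacgccgagg
Igf2_11, chr7:149847090-149847119: cgcagtgtccagtgCGtgtttggggcacac

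Reads summed over CpGs were more numerous in LL (lowest 3075215, median 6474476, highest 15531697) than in LH (lowest 1530126, median 4441608, highest 9522037), and their means differed (exact permutation p = 0.0451, 2-sided). The median reads per CpG overlapped widely, from 4335 to 18485.5 in LL and from 4480 to 12920 in LH (exact permutation p = 0.177). No deposited value rested on fewer than 100 reads. The mean over the 7 loci under 2% that had a value in all 20 animals was 0.747% ± 0.0466 (SD, 10 animals) in LL. In LH it was 0.750% ± 0.0862 (SD, 10 animals, exact permutation p = 0.934 for the difference). These loci were themselves tested, so their mean is no separate control of the conversion of unmethylated cytosine by bisulfite. The part that incomplete conversion plays at levels under 2% was not tested. Variance between animals stood at 13.6 times binomial counting variance at the median locus, from 1.42 times at Irs1_b, the 5′ UTR locus of Irs1, to 1181 times at Pck1.

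In LL animals 12 loci had a mean methylation under 2% and 10 a higher level. Amplicons of the 12 poorly methylated loci held a median of 7.07 CpGs per 100 bp (range 4.10 to 11.6), and those of the other 10 a median of 5.11 (range 1.99 to 8.68). Over the 22 loci, CpG density and the LL level had a Spearman rho of -0.55, given as a description, since the loci were chosen by the study and share libraries. Nr1i2 (94.6% ± 0.509) and the coding-exon locus of Irs1 (Irs1_a, 94.5% ± 1.32) were the most methylated in LL, and they did not differ beyond their spread. Lep followed at 64.0% ± 3.71, then Plagl1 at 53.5% ± 4.04 and Peg3 at 47.6% ± 2.57, then Nr1i3 at 30.6% ± 3.67 and Pck1 at 28.2% ± 8.52, whose spreads overlap. Rxrg (11.4% ± 1.88), Lepr (6.30% ± 0.589) and Igf2 (3.25% ± 0.294, 8 animals) stood below these (all others SD, 10 animals).

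**Figure D1:**
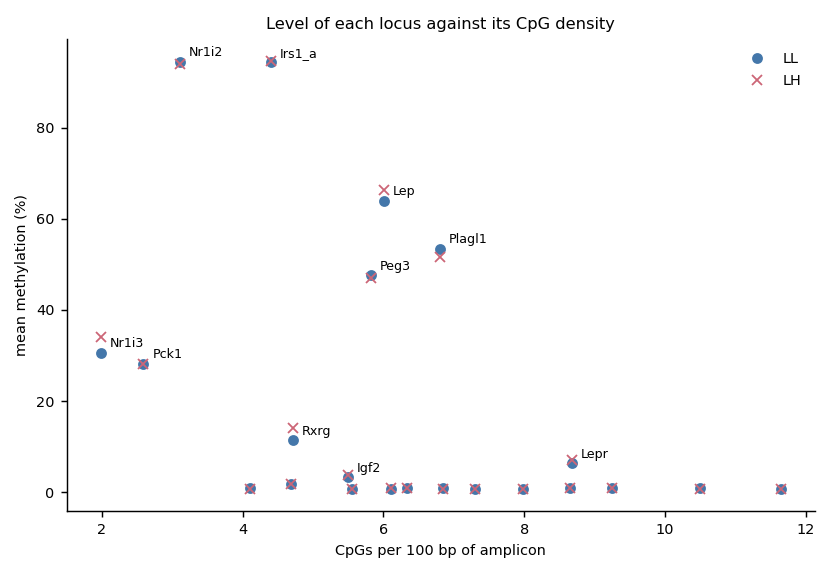
Mean methylation (%) of each locus against the CpGs per 100 bp of its amplicon, with circles for LL and crosses for LH. The 12 loci near 0 on the vertical axis are unlabelled, Nr1i2 and Irs1_a stand above 90%, and the circle and cross of a locus lie close together at every locus.

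Whether the post-weaning diet altered methylation was tested at each CpG and on the mean over the CpGs of each locus. No CpG passed an adjusted p of 0.05 (0 of 293, 0%). At an unadjusted p under 0.05 there were 23 of 293 CpGs (7.85%), 14 higher in LH (4.78%) and 9 lower (3.07%). Of these 23, 6 had a mean level of 2 to 98% over the LL and LH animals, and the rest lay outside that range. The LL and LH animals overlapped at every CpG tested (0 of 293 without overlap, 0%). The median absolute difference was 0.216 percentage points, 49 CpGs differed by more than 1 point and 1 by more than 5 points. LH was the higher group at 146 CpGs (49.8%).

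Among locus means, 0 of 22 passed the adjusted threshold (0%) and 2 of 22 had an unadjusted p under 0.05 (9.09%), Nr1i2 and Igf2. LH was higher at 12 loci and lower at 10, by between -1.75 points at Plagl1 and 3.42 points at Nr1i3. The 95% interval of the difference extended a median of 0.151 points to either side at the 12 loci under 2% and 3.25 points at the other 10. A missed threshold therefore leaves possible any difference within the interval of a locus. The ends lay as far as 7.53 points at Nr1i3 and -7.26 points at Pck1.

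**Figure D2:**
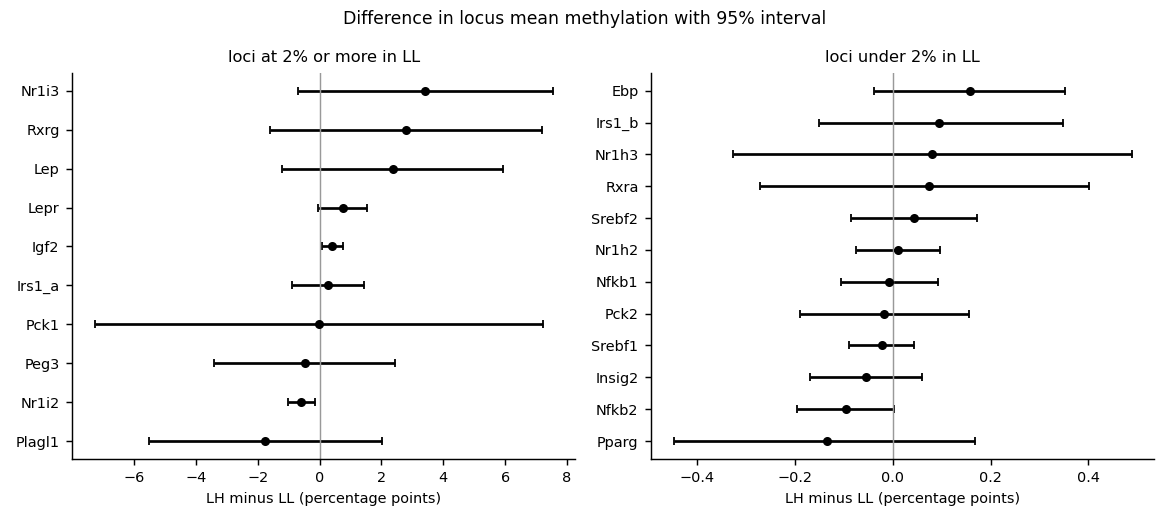
Difference in locus mean methylation, LH minus LL in percentage points, with its 95% interval, for the 10 loci at 2% or more in LL (left) and the 12 loci under 2% (right, on a finer scale). The interval clears 0 only at Nr1i2 and Igf2, and Pck1 has the widest, from -7.26 to 7.22 points.

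Nuclear receptors, which switch on lipid, bile acid and drug metabolism when bound by their ligands, were represented by 7 loci. None of their 76 CpGs passed the adjusted threshold and 5 had an unadjusted p under 0.05 (6.58%, against 7.85% of all CpGs), 2 higher and 3 lower in LH. The median difference over these CpGs was 0.0787 points, and -0.00361 points over all CpGs. Loci were higher in LH at 5 and lower at 2.

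Nr1i2 encodes the pregnane X receptor, a sensor of foreign compounds. Its locus mean ranged from 93.8% to 95.3% in LL (median 94.6%, 10 animals) and from 93.4% to 94.5% in LH (median 94.0%, 9 animals). All 9 LH animals lay under the LL median, although the ranges overlapped. The difference of -0.590 points (95% interval -1.03 to -0.153) gave p = 0.0109 in the exact permutation test (Benjamini-Hochberg adjusted p = 0.240). All 5 CpGs printed above were lower in LH, with differences between -1.17 and -0.0918 points, and none of them had an unadjusted p under 0.05. The last in the printed sequence, Nr1i2_5, was the least methylated in both groups (88.4% ± 2.48 in LL, 10 animals, and 87.3% ± 1.57 in LH, 9 animals). The CpGs of Nr1i2 did not vary together between animals of a group (mean pairwise correlation 0.0254 over 19 animals, a description).

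Animal numbers in the labels fell into runs that the labels do not explain, and 2 runs, with 10 animals in all, held both groups. Within these runs the smallest p possible was 0.02. The Nr1i2 difference was -0.106 points within runs (exact permutation p = 0.64), being -0.306 points in the first and 0.0941 points in the second. The part that runs play in this result was not tested.

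Nr1i3 encodes the constitutive androstane receptor, a relative of Nr1i2 that induces drug-metabolising enzymes. Its 4 CpGs lay upstream of the gene (chromosome 1, 173143385 to 173143516). Methylation was 24.8% to 36.2% in LL (median 30.6%) and 26.0% to 42.6% in LH (median 33.8%), with 8 of 10 LH animals above the LL median. This was the largest locus difference, 3.42 points (interval -0.694 to 7.53, Student's t-test p = 0.0978, adjusted p = 0.397). Within the first of the runs it was -1.02 points and within the second 6.56 points. All 4 CpGs were higher in LH, by 3.01 to 3.89 points, but they rose and fell together across animals (mean correlation 0.946), so they count as little more than a single observation.

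Rxrg encodes a retinoid X receptor, the partner that other receptors of this list pair with on DNA. Its 10 CpGs lay in an intron (2 CpGs) and an annotated UTR (8 CpGs) within the gene (chromosome 1, 169548431 to 169548578). Methylation was 9.24% to 15.2% in LL (median 11.2%) and 4.49% to 27.0% in LH (median 13.9%), a difference of 2.79 points (interval -1.61 to 7.20, Student's t-test p = 0.199, adjusted p = 0.548). The LH animals enclosed the whole LL range. Without LH replicate 8 the difference was 1.37 points (exact permutation p = 0.423). LH replicates 2 and 8 lay above every LL animal at all 10 CpGs, and LH replicate 6 lay below every LL animal at all 10.

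The SD between animals at Rxrg was 6.36 points in LH and 1.88 in LL, 3.39 times as large. The spread differed with p = 0.0897 in the exact permutation test (adjusted p = 0.824). LH replicates 8 and 6, at 27.0% and 4.49%, had a median of 123 and 398.5 reads per Rxrg CpG, whereas the other 18 animals had between 11863.5 and 79461. With at least 1000 reads required, an alternative added after the data had been seen, these 2 animals dropped out. The LH animals then ranged from 6.996% to 21.0% with an SD of 3.86 points (8 animals), 2.06 times the LL value, and the exact permutation p of the spread was 0.379. The difference in means was then 2.40 points.

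The liver X receptors, which sense oxysterols, are encoded by Nr1h3 and Nr1h2. Their locus means were 1.67% ± 0.422 and 0.650% ± 0.0968 in LL (10 animals), and 1.75% ± 0.412 (9 animals) and 0.660% ± 0.0860 (10 animals) in LH. Rxra, another retinoid X receptor gene, was at 0.863% ± 0.376 in LL (10 animals) and 0.936% ± 0.326 in LH (9 animals), and Pparg, a regulator of fat storage, at 0.814% ± 0.242 (8 animals) and 0.678% ± 0.351 (10 animals). The intervals of all 4 differences held 0, and the widest, at Nr1h3, ran from -0.327 to 0.488 points. The Nr1h3 mean was over 18 CpGs, of which 10 lay between its primers and the rest outside the matched amplicon.

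Nr1h2_1 (chromosome 7, 51809249) had the smallest p of all CpGs. Methylation was 0.232% to 0.702% in LL (median 0.369%) and 0.267% to 1.57% in LH (median 0.869%), with a median of 6855.5 reads. In 9 of 10 LH animals it exceeded the LL median, and the ranges overlapped. Every LL value at Nr1h2_1 lay under 0.747%, the LL mean of poorly methylated loci given above. What part incomplete conversion has at such levels was not tested. The difference of 0.442 points (interval 0.171 to 0.713) gave p = 0.00303 in Student's t-test (adjusted p = 0.574.) Within runs it was 0.462 points (exact permutation p = 0.1). The other CpGs of the locus did not share it: 7 of 17 were higher in LH and 10 lower, and Nr1h2_3, 22 bp away, differed by -0.354 points with p = 0.0494 in Student's t-test (adjusted p = 0.629).

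Leptin and insulin signalling was represented by 4 loci with 55 CpGs. All 4 loci were higher in LH, and the 6 CpGs with an unadjusted p under 0.05 (10.9%, against 7.85% of all CpGs) were all higher in LH. The median difference over the 55 CpGs was 0.387 points. None of these CpGs passed the adjusted threshold.

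Lepr encodes the leptin receptor, and its 19 CpGs lay at the gene start on chromosome 4, 9 of them upstream and 10 in the 5′ UTR. The locus mean was 5.64% to 7.21% in LL (median 6.10%) and 5.20% to 8.33% in LH (median 7.14%), with 8 of 10 LH animals above the LL median and both ends of the range in LH. The difference of 0.742 points (interval -0.0475 to 1.53) gave p = 0.0639 in Student's t-test (adjusted p = 0.351). Within runs LH was higher by 1.71 points (p = 0.02 by exact permutation, adjusted p = 0.147). In LL, methylation was highest at Lepr_1 (25.6%) and lowest at Lepr_16 (1.20%), but it did not fall steadily between them. LH was higher at 17 of the 19 CpGs. Differences lay between 0.314 and 3.71 points upstream, where levels were also higher on average. In the 5′ UTR they lay between -0.143 and 0.711 points, so the ranges overlapped. CpGs of the locus were only weakly related between animals (mean correlation 0.158).

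Lepr_8 was at 5.50% to 8.32% in LL (median 6.89%) and 7.58% to 10.6% in LH (median 8.37%). The adjacent Lepr_7 was at 12.4% to 19.9% in LL (median 15.5%) and 16.9% to 23.8% in LH (median 19.1%). At both CpGs all 10 LH animals exceeded the LL median, while the ranges overlapped. The difference was 1.42 points at Lepr_8 (interval 0.487 to 2.36, Student's t-test p = 0.00503) and 3.71 points at Lepr_7 (interval 1.004 to 6.41, Student's t-test p = 0.00995), each with an adjusted p of 0.574. Within runs these were 1.64 points (exact permutation p = 0.1) and 4.76 points (exact permutation p = 0.08). Lepr_2 and Lepr_11 also had an unadjusted p under 0.05, with LH higher by 1.69 and 0.711 points.

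Lep encodes leptin, a hormone of fat cells, and its upstream region was largely methylated in liver. The level alternated along the printed amplicon, from 51.5% at Lep_10 to 82.7% at Lep_3 in LL. The locus mean was 58.7% to 70.0% in LL (median 65.4%) and 59.6% to 73.0% in LH (median 66.7%), a difference of 2.36 points (interval -1.21 to 5.93, Student's t-test p = 0.182, adjusted p = 0.548). LH was higher at 10 of the 11 CpGs, which were related between animals (mean correlation 0.580).

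Lep_11, the last CpG in capitals of the Lep sequence and the nearest to the gene start (chromosome 6, 29010069), showed the largest difference of any CpG. It was at 53.9% to 66.5% in LL (median 57.8%) and 59.6% to 70.4% in LH (median 62.7%), and all 10 LH animals exceeded the LL median although the ranges overlapped. The difference of 5.36 points (interval 1.46 to 9.27) gave p = 0.00982 in Student's t-test (adjusted p = 0.574.) Within runs it was 3.95 points (exact permutation p = 0.22). Lep_2 differed by 4.94 points with a wider spread (54.4% ± 7.21 in LL and 59.4% ± 6.74 in LH, 10 animals each, Student's t-test p = 0.130).

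**Figure D3:**
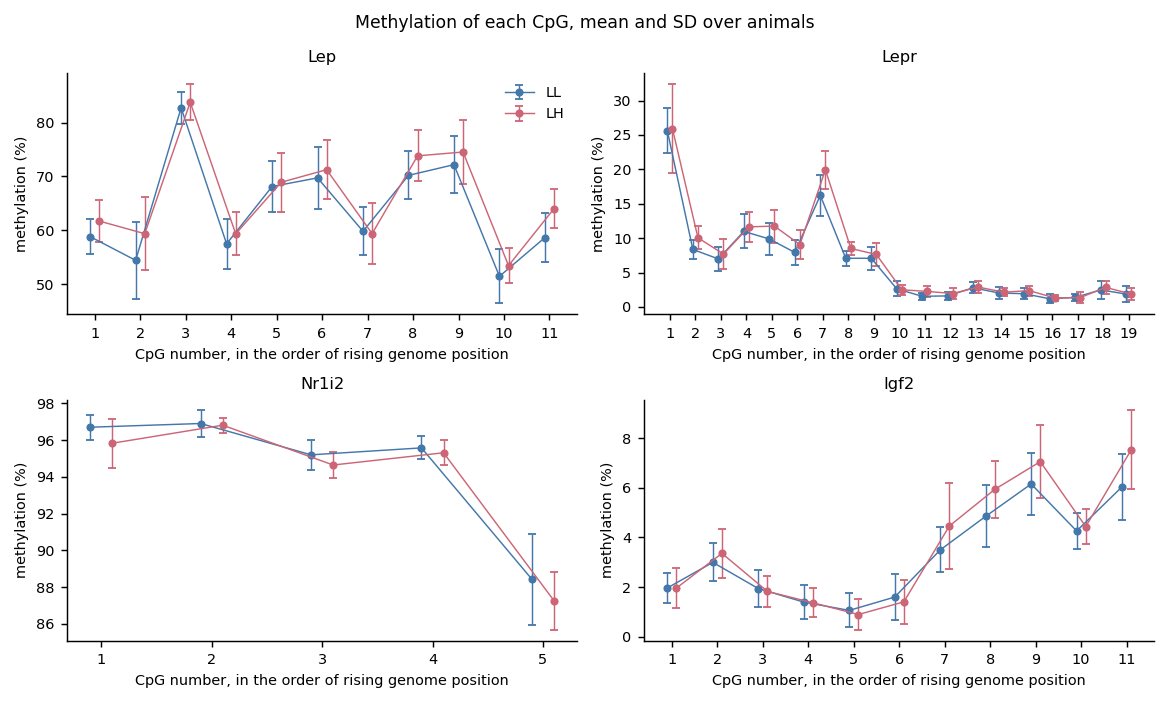
Methylation (%) of each CpG at Lep, Lepr, Nr1i2 and Igf2, with points at the mean and bars for the SD over animals, LL in blue and LH in red. The groups run along the same profile at each locus. The SD bars of LL and LH overlap at every CpG shown.

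Irs1 encodes an adaptor of the insulin receptor and was measured at separate sites. The 10 CpGs in its coding exon (chromosome 1, 82285756 to 82285857) were at 94.5% ± 1.32 in LL and 94.7% ± 1.17 in LH, and the 15 CpGs in its 5′ UTR (chromosome 1, 82287315 to 82287497) at 0.789% ± 0.189 (8 animals) and 0.883% ± 0.273 (8 animals). The differences were 0.271 points (interval -0.902 to 1.44) and 0.0940 points (interval -0.151 to 0.347). Irs1_a_10, at the edge of the coding-exon locus, was at 89.3% ± 2.19 in LL and 91.2% ± 1.37 in LH (10 animals each), and 9 of 10 LH animals exceeded the LL median (unadjusted p = 0.0377 in Student's t-test, adjusted p = 0.613).

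**Figure D4:**
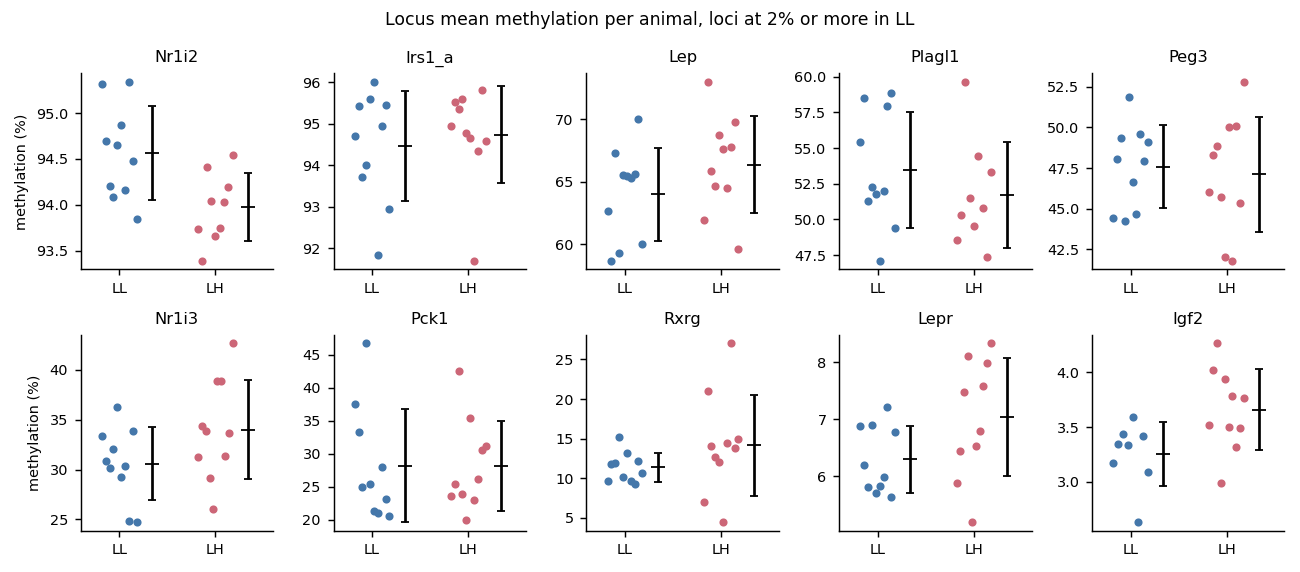
Locus mean methylation (%) of each animal at the 10 loci at 2% or more in LL, in blue for LL and red for LH, with the mean and SD as black bars and a separate axis for each locus. The groups overlap at every locus, and at Rxrg the LH animals reach from 4.49% to 27.0% around the LL animals.

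Igf2, Peg3 and Plagl1 are imprinted. Plagl1 and Peg3 were near the level of a gene methylated on a single parental copy. Of the 39 CpGs of these genes 1 had an unadjusted p under 0.05 (2.56%, against 7.85% of all CpGs), and the median difference was -0.717 points.

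Igf2 encodes a fetal growth factor, and its 11 CpGs lay in the 5′ UTR (chromosome 7, 149846969 to 149847104). Methylation was 2.63% to 3.59% in LL (median 3.34%, 8 animals) and 2.99% to 4.27% in LH (median 3.64%, 10 animals). In LH 8 of 10 animals exceeded the LL median and the ranges overlapped. The difference of 0.407 points (interval 0.0646 to 0.745) gave p = 0.0224 in the exact permutation test (adjusted p = 0.247). LH was higher at 6 CpGs and lower at 5. The 5 CpGs of highest position carried most of it, and Igf2_11, printed above, was at 6.04% ± 1.33 in LL (8 animals) and 7.53% ± 1.59 in LH (10 animals, exact permutation p = 0.0479, adjusted p = 0.629). Within runs the locus difference was 0.357 points (exact permutation p = 0.3), and without LL replicate 6 it was 0.318 points (exact permutation p = 0.0505).

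Plagl1, a zinc finger gene whose CpGs lay at the gene start, was at 53.5% ± 4.04 in LL (10 animals) and 51.7% ± 3.70 in LH (9 animals). Peg3, another zinc finger gene, was at 47.6% ± 2.57 and 47.1% ± 3.57 (10 animals each). LH was lower at all 17 CpGs of Plagl1 and at all 11 of Peg3, by -1.75 points on average at Plagl1 (interval -5.51 to 2.03, exact permutation p = 0.336) and -0.479 points at Peg3 (interval -3.40 to 2.44, Student's t-test p = 0.735). CpGs within each locus moved together between animals (mean correlation 0.887 and 0.967), so the shared direction adds little beyond the locus mean. Plagl1_7 had the largest negative difference of any CpG, with 52.5% ± 3.35 in LL and 49.7% ± 3.68 in LH, -2.80 points (exact permutation p = 0.102). Within runs the Plagl1 difference was 1.10 points, that is, in the other direction.

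Regulators and enzymes of sterol synthesis were all poorly methylated. Srebf1 and Srebf2 encode the transcription factors that switch on lipid and cholesterol genes, Insig2 holds them in the endoplasmic reticulum and Ebp is an isomerase of cholesterol synthesis. Of their 71 CpGs 5 had an unadjusted p under 0.05 (7.04%, against 7.85%), 3 higher and 2 lower in LH, and the locus differences lay between -0.0548 points at Insig2 and 0.157 points at Ebp. Srebf1 was at 0.746% ± 0.0529 in LL and 0.723% ± 0.0848 in LH, Srebf2 at 0.666% ± 0.122 and 0.709% ± 0.152, and Insig2 at 0.857% ± 0.123 and 0.802% ± 0.120 (10 animals each), and the intervals of all 3 differences held 0. Ebp was at 0.729% ± 0.0945 in LL and 0.886% ± 0.278 in LH (10 animals each, Student's t-test p = 0.108). LH replicate 5, the highest at 1.59%, had a median of 112 reads per Ebp CpG, whereas the other 19 animals had at least 16650, and without it the difference was 0.0789 points. Its CpGs did not move together: Ebp_10 was higher in LH by 0.739 points (Student's t-test p = 0.0126) and Ebp_6 lower, with a difference of -0.480 points (Student's t-test p = 0.0292), both with an adjusted p of 0.574.

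Pck1 and Pck2 encode the cytosolic and mitochondrial forms of phosphoenolpyruvate carboxykinase, which commits carbon to glucose synthesis. Pck1, with 4 CpGs just upstream of its gene and 1 in the 5′ UTR (chromosome 2, 172978445 to 172978561), was at 20.6% to 46.7% in LL (median 25.2%) and 20.05% to 42.5% in LH (median 25.8%). The means differed by -0.0173 points, the smallest in size among the 10 loci at 2% or more, but the interval ran from -7.26 to 7.22 points and animals of both groups varied widely. The 5 CpGs of Pck1 moved together between animals (mean correlation 0.967). Pck2 was at 0.784% ± 0.164 in LL and 0.767% ± 0.202 in LH (10 animals each). Of the 15 CpGs of these genes 2 had an unadjusted p under 0.05 (13.3%, against 7.85% of all CpGs), both in Pck2 and lower in LH.

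Nfkb1 and Nfkb2 encode subunits of NF-kB, a transcription factor of inflammation. Nfkb2 (chromosome 19, 46379984 to 46380194) was at 0.585% to 0.964% in LL (median 0.808%) and 0.581% to 0.902% in LH (median 0.689%). In LH 1 of 10 animals exceeded the LL median and 9 lay below it, and 14 of 18 CpGs were lower in LH. The difference of -0.0969 points (interval -0.195 to 0.00154) gave p = 0.0533 in Student's t-test (adjusted p = 0.351), and the within-run difference was -0.154 points. Its within-run p was the lowest available there (exact permutation p = 0.02, adjusted p = 0.147), as it also was at Lepr and at Ebp, where the within-run difference was 0.129 points.

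Nfkb1 was at 0.789% ± 0.110 in LL (10 animals) and 0.781% ± 0.0927 in LH (9 animals). Nfkb1_4, printed above, was at 0.395% to 0.928% in LL (median 0.656%, 10 animals) and 0.568% to 1.13% in LH (median 0.919%, 9 animals), with 8 of 9 LH animals above the LL median and overlapping ranges. The difference of 0.256 points (interval 0.0722 to 0.439) gave p = 0.0104 in the exact permutation test (adjusted p = 0.574), and within runs it was 0.235 points (exact permutation p = 0.167). Of the 37 CpGs of Nfkb1 and Nfkb2, 4 had an unadjusted p under 0.05 (10.8%, against 7.85%), 2 in each direction.

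The same post-weaning contrast in offspring of HF dams, HH vs HL, used other animals. There 4 of 22 loci had an unadjusted p under 0.05 (18.2%) and 1 passed the adjusted threshold (4.55%). That locus was Lepr, where HL was at 5.84% ± 0.746 (9 animals) and HH at 7.59% ± 0.993 (10 animals), which is 1.75 points higher in HH (p = 0.000693 by exact permutation, adjusted p = 0.0152), beside 0.742 points in LH vs LL. Nr1i2 differed by -0.137 points in HH vs HL and by -0.590 points in LH vs LL. Igf2 differed by -0.239 points (5 animals each) and 0.407 points respectively, and Nfkb2 by -0.0273 and -0.0969 points.

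Over the 272 CpGs with values in all groups, the LH minus LL and HH minus HL differences had a Pearson r of -0.10 and a Spearman rho of 0.0233, a description across CpGs that share libraries and loci. They had the same sign at 143 of 272 CpGs (52.6%) and at 12 of 22 loci (54.5%). HH replicate 1 entered these values, and at Ebp it was at 20.8%, against 0.607% to 1.03% in the other HH animals. With it, the Ebp CpGs were higher in HH than in HL by 1.52 to 3.12 points. The correlations and sign counts were not computed without this animal. Whether the post-weaning difference depended on maternal diet was tested at each locus by permutation, and 0 of 22 loci passed the adjusted threshold (0%) and 1 had an unadjusted p under 0.05 (4.55%).

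That locus was Plagl1, where LH minus LL was -1.75 points and HH minus HL was 3.57 points (47.7% ± 3.53 in HL, 9 animals, and 51.2% ± 3.41 in HH, 10 animals). The difference between these was -5.32 points (permutation p = 0.0309, adjusted p = 0.548). Without LL replicate 2, 8 or 9, or without LH replicate 9, no locus had an unadjusted p under 0.05, and without LH replicate 10 there were 4. At Lepr the difference between the contrasts was -1.01 points (permutation p = 0.0727, adjusted p = 0.548).

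**Figure D5:**
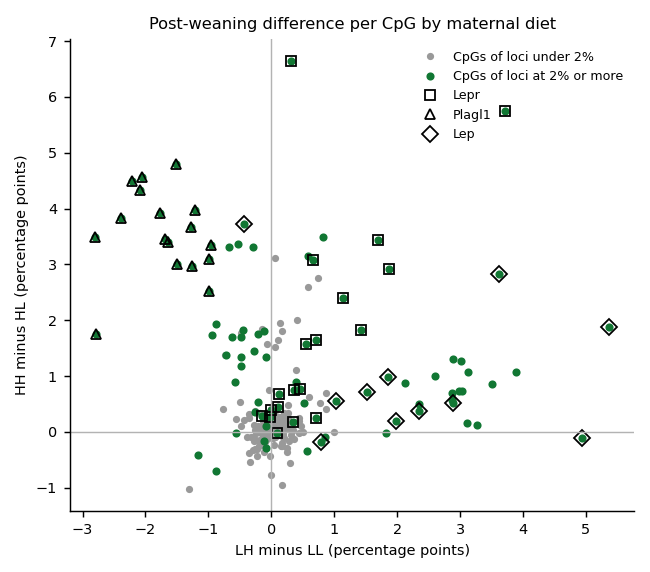
Difference in methylation of each CpG in percentage points, LH minus LL on the horizontal and HH minus HL on the vertical axis, for 272 CpGs, with the CpGs of Lepr, Plagl1 and Lep outlined. The Plagl1 CpGs lie to the left of and above 0, most Lepr CpGs above 0 on both axes, and the cloud of all CpGs shows no common slope (Pearson r -0.10).

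Whether animals on the HF diet differed more among themselves was tested at each locus by the mean absolute deviation from the group median. None of the 22 loci passed at either threshold (0%), adjusted or unadjusted. The smallest p was at Lepr, with a mean deviation of 0.864 points in LH and 0.5004 points in LL and an SD 1.75 times as large in LH (exact permutation p = 0.0680, adjusted p = 0.824). Without LH replicate 5 the mean deviations differed by 0.205 points in place of 0.363. By the ratio of SDs, 1 locus, Lepr, had an unadjusted exact permutation p under 0.05 (p = 0.0496, adjusted p = 0.553).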

How the data were processed

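Liver DNA was treated with bisulfite, which spares methylated cytosine, and 22 loci were amplified with locus-specific primers, pooled by animal, barcoded and sequenced on 1 lane. The authors aligned reads and called methylation with Bismark (version not given in the sources used here), and the submitters' processing notes name build mm9. They deposited, for every CpG in every animal, a methylated read count with a total read count, and a table of the methylated fraction, which was not used in calculations. PCR duplicates carry no molecular identifiers, so counting error understates technical error. Overlapping mates may be counted in duplicate.

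Animals were grouped by the labels. The labels do not name cages or litters, and p-values treat animals as independent. CpGs within 1000 bp formed a locus. All 22 primer pairs were matched to NCBIM37 near the measured CpGs, and matches elsewhere in the genome were not sought. Genes came from GENCODE M1. Of the 300 CpGs, 288 lay between primers and 11 outside. Percent methylation was 100 times methylated over all reads, at 10 reads or more. An animal had a locus mean where it had a value at 50% or more of the CpGs.

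Tests were 2-sided, with Student's t-test where both groups had 10 values (186 CpGs and 14 loci) and otherwise an exact permutation test whose p is the smaller tail counted on both sides (107 CpGs and 8 loci). The Benjamini-Hochberg method was applied over all CpGs or all loci at 0.05. The interaction used 100000 permutations of residuals within maternal diet, and the spread an exact permutation test. Within runs of animal numbers, with gaps up to 2, labels were permuted within runs. Alternatives were an exact Wilcoxon test, quasi-binomial and limma (3.58.1) models, other coverage and completeness filters, pooled reads and leaving out each animal. Scripts ran in Python 3.11.15, numpy 2.4.6, scipy 1.17.1 and pandas 2.3.3, figures in matplotlib 3.10.9 and limma in R 4.3.3, and tests were checked on simulated data. Every locus is named once in its gene group. Values over animals are given for the 3 loci and 5 CpGs of smallest p, the CpG of largest difference in each direction, and the loci of smallest p for interaction and spread. Other CpGs and loci given in full, among them Nr1i3, Rxrg, Lepr and Pck1, were chosen after their values were seen. The members, lists and tests were chosen with earlier results of these data known. For Lepr, neither sequence nor precise coordinates are given here.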

Additional observations from a re-analysis of the deposited data

Results flagged for a closer look

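Of 46 groups of values (locus means and depth in LL and in LH), 4 held a value set apart from the rest by Dixon's test at its 95% critical value, where chance gives about 1 in 20 groups, that is 2.3. LH replicate 7 was at 91.7% at the coding-exon locus of Irs1, against 95.1% ± 0.519 in the other 9 LH animals. LL replicate 10 was at 1.81% at Rxra, against 0.758% ± 0.186 in the other 9 LL animals. LH replicate 5 was at 1.59% at Ebp, against 0.808% ± 0.136 in the other 9 LH animals. LH replicate 10 had a median of 12920 reads per CpG, against 6159 ± 1875 in the other 9 LH animals.

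The post-weaning difference at Plagl1 differed between maternal diets at an unadjusted p under 0.05, by -5.32 points, but not after adjustment (permutation p = 0.0309, adjusted p = 0.548).

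CpGs with values in too few LL and LH animals to be compared still gave methylated reads. Over the LL and LH animals with a value, means were 1.30% at Rxra_1, 0.568% at Rxra_2 and 1.01% at Rxra_17 (11 animals each), and 0.723% at Nr1h3_1 (8 animals). At a single CpG downstream of the gene 6030445D17Rik, which no primer pair matched, 1 animal had 24 methylated of 176 reads, 13.6% (exact Clopper-Pearson 95% interval 8.94 to 19.6%, counting error only).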

How the results depend on the processing

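No CpG and no locus passed the adjusted threshold in LH vs LL under any alternative run. Within runs of animal numbers the smallest p possible was 0.02. Only a large share of the loci or CpGs at that value could have passed there. The alternative with a minimum of 100 reads could not differ from the main analysis, since no value rested on fewer. The count of CpGs with an unadjusted p under 0.05 was 23 in the main analysis. It was 10 within runs, where fewer animals entered, and 6 among CpGs of 2 to 98%, where fewer CpGs were tested. No share of the CpGs tested is given for either, so neither count is to be read as a loss from 7.85%. The rest of the 23 had a mean level outside 2 to 98%. The count of loci was 2 in the main analysis, Nr1i2 and Igf2. It was 1 with a value in at least 36 animals and 0 with a value in all 20 animals. The filter for all 20 removed both loci before testing (9 LH animals at Nr1i2, 8 LL animals at Igf2). The filter for 36 removed Igf2 (5 HL and 5 HH animals). Neither filter could call a locus that it removed, so these lower counts say nothing of the removed loci. The count of loci was 5 under the quasi-binomial model and 4 with pooled reads. It was 1 to 5 when an animal was left out (1 without LL replicate 6, 4 without LL replicate 8, LH replicate 2 or LH replicate 5, and 5 without LH replicate 1). For the interaction it was 0 to 4 and for the spread 0 to 1 when an animal was left out (1 without LL replicate 6, LL replicate 8 or LH replicate 7), and 1 by the ratio of SDs. In HH vs HL it was 2 to 4 (2 without HH replicate 2, HH replicate 5 or HL replicate 9) and the adjusted count 1 to 2 (2 without HH replicate 1, HH replicate 9 or HL replicate 6). Total reads in place of median reads gave a difference of -3213919.

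Differences that changed sign, none of which had passed a threshold, were within runs Plagl1_7 (0.455 points), Plagl1 (1.10), Srebf1 (0.00379), Pck2 (0.0835), Rxra (-0.0491), Pck1 (4.76), Peg3 (0.300) and Nr1h2 (-0.0148). Under the quasi-binomial model they were Srebf1 (0.0126), Pck2 (0.0365), Srebf2 (-0.0140), Nr1h3 (-0.0345) and Pck1 (1.43), and under limma on log2 ratios Irs1_b (-0.0210), Insig2 (0.0273) and Pck1 (0.0107). With an animal left out, differences spanned 0 at Irs1_a (-0.0198 to 0.607), Nfkb1 (-0.0275 to 0.0159), Nr1h2 (-0.00437 to 0.0307), Nr1h3 (-0.000616 to 0.147), Pck1 (-1.61 to 2.03), Pck2 (-0.0570 to 0.0146) and Peg3 (-1.11 to 0.111). The cause of these changes was not tested. Pooled reads put Lepr in LL at 5.58%. No paired analysis was possible because the labels number each animal once and pair none across groups. Low depth at Irs1_b, Pparg and Rxra, with median reads of 430, 337 and 222, limits the precision there.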
